A study of Mus musculus with 8 samples.

Results

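The fatty acid elongase family of the mouse, Elovl1 to Elovl7, was followed in morulae depleted of P150, with Elovl3 as the member that stood furthest apart. All probes whose RefSeq accession belonged to one of these symbols were taken, which gave 9 probes for 7 genes, of 55681 probes and 20660 named genes on the array. The genes were chosen with the contrast of P150KD against siControl already known, so their own differences below are descriptions, given without a test. Each gene was represented by 1 probe except Elovl1 and Elovl4, which had a pair each. The probe of Elovl3 was A_51_P324633 and that of Elovl5 was A_51_P505493.

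The 5 P150KD arrays carried RNA of morulae injected with siRNA against P150, and the 3 siControl arrays RNA of morulae injected with control siRNA. P150, the product of Chaf1a, is the large subunit of CAF-1, a histone chaperone that deposits nucleosomes on newly replicated DNA. All embryos of both groups came from in vitro fertilisation, were cultured in KSOM and were collected at embryonic day 3.0, with 10 pooled embryos per array. No strain is given in the labels, and they do not say whether the arrays of a group came from separate collections, so each p-value covers only how these samples vary, which may be technical variation.

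Elongases sit in the endoplasmic reticulum membrane and catalyse the condensation step that lengthens a fatty acyl-CoA with carbon from malonyl-CoA. A ketoreductase, a dehydratase and an enoyl reductase, shared by all elongases, then complete the cycle. The members differ in the substrates they prefer: Elovl1, Elovl3, Elovl6 and Elovl7 act on saturated and monounsaturated chains, Elovl2 and Elovl5 on polyunsaturated chains, and Elovl4 makes the ultra-long chains of retina, skin and testis. Elovl3 is best known from brown fat, sebaceous glands and liver.

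The share of spots well above background was 50.1% to 55.9% per array, with 0 saturated. Levels are log2 processed signals minus log2 of the 75th percentile of that array, which ran from 1066 to 1304 on the P150KD arrays and from 819 to 1150 on the siControl arrays. Chaf1a was at -1.47, 0.52, -0.48, -1.45 and -0.23 on P150KD replicates 1 to 5, and at 2.40, 2.09 and 2.27 on siControl replicates 1 to 3, on this log2 scale. It fell by 2.88 (SE 0.48, limma adjusted p = 0.0107), with no overlap of the groups. With slide column blocked, which sets P150KD replicate 1 alone against the controls, Chaf1a differed by -3.72 (adjusted p = 0.0509). All 12 preimplantation embryo markers were measured and 5 of them fell, with 0 rising, where 10.5% of all tested genes fell; their summed scaled signal was 442 to 593 on P150KD arrays and 778 to 827 on siControl arrays, and its part in the Elovl values was not tested. Of 13 cumulus and granulosa cell markers, 6 were well above background on no array, among them Has2, Ptx3 and Fshr. Foxl2 (means of 0.94 in P150KD and 0.77 in siControl) and Cd44 (-3.42 and -3.11) were above background on all 8 arrays. Star was above background on 2 of 5 P150KD and 2 of 3 siControl arrays. The 3 tested markers of this list gave 0 calls. The list summed to 1.65 to 2.81 on P150KD arrays and 2.15 to 3.24 on siControl arrays. P150KD replicate 1 shared a column of the slide with the 3 siControl arrays, and P150KD replicates 2 to 5 held the other column.

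Elovl3, the elongase of saturated and monounsaturated very long chains, was found on every P150KD array and on no siControl array. Its processed signal, in the units of the scanner, was 61165, 37538, 39425, 43964 and 46091 on P150KD replicates 1 to 5, and 8.93, 7.89 and 6.57 on siControl replicates 1 to 3. On the siControl arrays the median pixel of the spot was 62, 66 and 52 against a local background of 43, 46 and 42, and the probe was not well above background. The probe was thus among bright signals in all P150KD embryo pools and near the scanner background in all siControl pools.

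On the log2 scale Elovl3 was at 5.83, 5.14, 5.10, 5.35 and 5.14 in P150KD morulae, against -7.01, -7.18 and -6.96 in siControl morulae. The means were 5.31 ± 0.30 (SD, n = 5) in P150KD and -7.05 ± 0.11 (SD, n = 3) in siControl, a difference of 12.36 (SE 0.22). Because no siControl array was well above background, the fold is a bound, as scaled here. It was taken against the dimmest signal that passed as well above background on each siControl array. Against that signal Elovl3 was at least 1408-fold higher in P150KD. The siControl values are not measured levels, so the difference of 12.36 is not a measured fold. That dimmest signal is not a strict upper limit for probes that did not pass. After normexp background correction (offset 50) the difference was 8.95, which is a smaller fold than this bound. P150KD replicate 1, which lay in the slide column of the controls, exceeded them by 12.88.

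**Figure D1:**
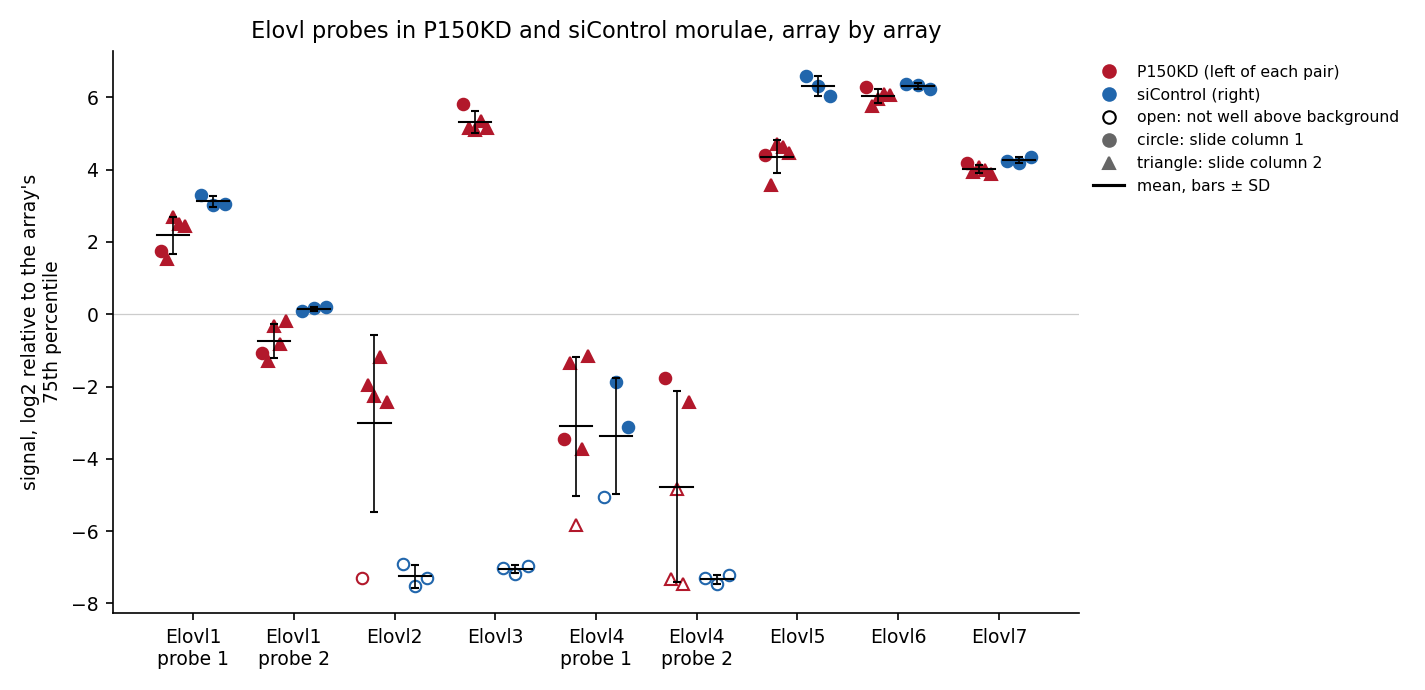
Level of each of the 9 Elovl probes on every array, on the log2 scale of the text, with P150KD (5 arrays) left of siControl (3 arrays); each point is an array, open where the probe was not well above background, a circle in slide column 1 and a triangle in column 2, with horizontal bars for group means and error bars for the SD. Elovl3 lies between 5.10 and 5.83 on P150KD arrays and between -7.18 and -6.96 on siControl arrays, while Elovl5 lies between 3.56 and 4.72 on P150KD arrays and between 6.05 and 6.58 on siControl arrays.

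Elovl5, which elongates polyunsaturated fatty acids of intermediate length, was lower in P150KD on every array. Its log2 level was 4.40, 3.56, 4.72, 4.62 and 4.47 in P150KD morulae, against 6.58, 6.31 and 6.05 in siControl morulae. The highest P150KD value lay below the lowest siControl value. The means were 4.35 ± 0.46 (SD, n = 5) in P150KD and 6.31 ± 0.27 (SD, n = 3) in siControl, a difference of -1.96 (SE 0.30), or a 3.89-fold lower signal in P150KD. In bulk embryos, fewer cells of a type and less RNA per cell cannot be told apart. Among all tested genes, 647 had a larger fall than Elovl5. It was well above background on all 8 arrays, so this difference, unlike that of Elovl3, is measured on both sides.

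Elovl2 extends long polyunsaturated chains towards docosahexaenoate. Its probe was well above background on 4 of 5 P150KD arrays and on 0 of 3 siControl arrays. The log2 levels were -7.29, -1.96, -2.26, -1.17 and -2.43 in P150KD morulae, against -6.91, -7.53 and -7.30 in siControl morulae. P150KD replicate 1 was as low as the controls, so the groups overlapped, and the 4 other P150KD arrays were higher than all controls. The mean difference was 4.22 (SE 1.31) as scaled here and 1.79 after normexp background correction. No bound on the fold is given, because 1 P150KD array was not above background either. P150KD replicate 1 is the knockdown array that shares the slide column of the controls, and within that column the difference was -0.05. Among the 30348 tested probes, 44 shared its pattern of being above background on every P150KD array except replicate 1 and on no siControl array. The array left out of such a pattern was replicate 2 for 85 probes, replicate 3 for 81, replicate 4 for 28 and replicate 5 for 18. A further 196 probes were above background on all 5 P150KD arrays and on no siControl array, Elovl3 among them. The part of the slide column in the Elovl2 values was not tested.

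The promoter windows of the RefSeq table for GRCm38.p6, from 250 bases before to 50 bases after a gene's start, held 6 of the 7 members. Elovl3 had no entry, so nothing below on promoters covers it. Those of Elovl5 and Elovl2 are shown because both enzymes act on polyunsaturated chains. The Elovl5 window is chr9:77917115-77917414 on the plus strand, with the CCAAT motif, which reads ATTGG on this strand, in capitals. The Elovl2 window is chr13:41220354-41220653 on the minus strand, the upstream one of its 2 starts, with the GGGCGG motif in capitals. Both are written 5′ to 3′ along the gene.
Elovl5: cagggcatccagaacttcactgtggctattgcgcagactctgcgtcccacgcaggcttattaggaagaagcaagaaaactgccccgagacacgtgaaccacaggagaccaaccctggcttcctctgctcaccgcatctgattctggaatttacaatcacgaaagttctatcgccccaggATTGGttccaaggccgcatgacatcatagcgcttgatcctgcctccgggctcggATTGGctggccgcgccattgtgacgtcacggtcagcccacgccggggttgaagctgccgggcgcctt
Elovl2: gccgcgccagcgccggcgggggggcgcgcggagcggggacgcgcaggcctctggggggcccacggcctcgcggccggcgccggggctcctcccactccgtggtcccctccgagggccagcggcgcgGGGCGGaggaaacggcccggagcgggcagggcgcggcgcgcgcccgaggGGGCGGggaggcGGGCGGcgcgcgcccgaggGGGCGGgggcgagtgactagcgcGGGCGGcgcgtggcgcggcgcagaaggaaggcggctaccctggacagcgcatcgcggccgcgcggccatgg
The Elovl5 window held 2 CCAAT and 0 GGGCGG, and the Elovl2 window held 5 GGGCGG and 0 CCAAT, searched on both strands with no overlap between the motifs. The window of the other Elovl2 start, which is not printed, held 0 of either motif. Among all 32851 promoter windows, 37.4% held CCAAT and 35.7% held GGGCGG. The TATA box TATAAA, present in 13.6% of all windows, and the sterol-element letters TCACNCCAC, present in 1.24%, occurred in no window of the 6 members. The ratio of observed to expected CpG was 0.81 in the Elovl5 window and 1.08 in the Elovl2 window, against a median of 0.38 over all windows. A match describes the letters in the window only.

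Elovl1, which makes the saturated very long chains used in sphingolipids, was lower in P150KD with both of its probes. The brighter probe was at 1.75, 1.53, 2.69, 2.50 and 2.45 in P150KD morulae, against 3.30, 3.02 and 3.05 in siControl morulae, a difference of -0.94 (SE 0.31). The second probe differed by -0.89 (SE 0.29), with means of -0.74 ± 0.48 (SD, n = 5) in P150KD and 0.15 ± 0.06 (SD, n = 3) in siControl. The groups did not overlap with either probe, so the pair gave the same direction and nearly the same size.

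Elovl6, which extends palmitate to stearate, and Elovl7, which acts on saturated chains, differed little. Elovl6 was at 6.29, 5.76, 5.94, 6.09 and 6.06 in P150KD morulae, against 6.36, 6.35 and 6.23 in siControl morulae, and the groups overlapped. Elovl7 was at 4.18, 3.94, 4.06, 3.98 and 3.88 in P150KD morulae, against 4.25, 4.19 and 4.34 in siControl morulae, and the groups did not overlap, by a narrow margin. The differences were -0.29 (SE 0.17) for Elovl6 and -0.25 (SE 0.15) for Elovl7, close to the median of all 14601 tested genes, -0.24. Both differences turned to 0.41 and 0.44 when arrays were scaled to a list of housekeeping genes.

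Elovl4, the elongase of ultra-long chains, had no settled direction. Its tested probe was at -3.44, -1.34, -5.84, -3.73 and -1.16 in P150KD morulae, against -5.07, -1.88 and -3.13 in siControl morulae, and was well above background on 4 of 5 and 2 of 3 arrays. The difference was 0.25 with an SE of 1.20, and leaving out single arrays moved it between -0.60 and 0.99. The second probe was too dim to be tested, with 2 of 5 P150KD arrays and 0 of 3 siControl arrays above background.

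By the limma fit over all probes, 2 of the 7 genes passed the threshold of an adjusted p of 0.05, Elovl3 higher and Elovl5 lower, where 17.1% of all tested genes did (6.65% higher and 10.5% lower). Groups did not overlap for 4 of the 7, Elovl1, Elovl3, Elovl5 and Elovl7, where 32.0% of all tested genes did not overlap. Nothing is read from these counts, because the family was chosen on this contrast. The test needed a probe well above background on 3 or more of the 8 arrays; Elovl2 and Elovl3 passed through P150KD arrays alone, and Elovl1, Elovl5, Elovl6 and Elovl7 were above background on all 8.

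Scaling to a percentile, the median or a gene list shifts all probes of an array by 1 amount, while quantile normalization shifts probes unequally. The median difference of all probes was -0.20 as scaled here, -0.27 when scaled to the array median, -0.13 after quantile normalization and 0.49 when scaled to the 12 housekeeping genes, of which 5 fell and 0 rose. Over all probes 13.9% were called, 1907 higher (6.28%) and 2324 lower (7.66%) in P150KD as scaled here, against 2073 and 1487 after quantile normalization and 5041 and 407 with the housekeeping scale. Elovl3 differed by 13.05 and Elovl5 by -1.27 on the housekeeping scale, so their directions held there. The probes of Elovl1 differed by -0.25 and -0.20 on that scale, less than their SEs of 0.31 and 0.29 as scaled here.

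A difference between members of the same array does not depend on a shift that all probes share. Elovl5 minus Elovl6 lay between -2.19 and -1.22 on P150KD arrays and between -0.18 and 0.22 on siControl arrays, a change of -1.67. Elovl1 minus Elovl6 changed by -0.65, and Elovl7 minus Elovl6 by 0.04. Elovl5 and Elovl6 thus changed unequally within the arrays, by more than the spread of either group.

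**Figure D2:**
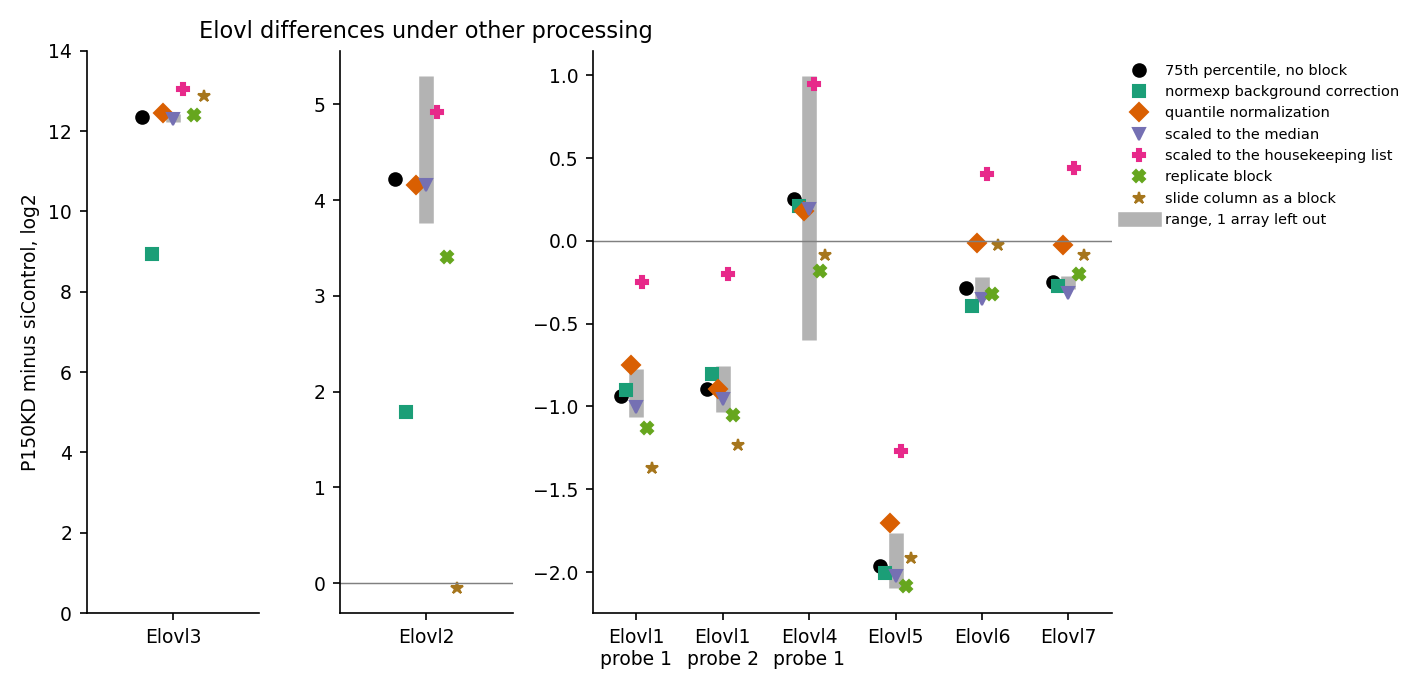
Difference of P150KD minus siControl (log2) for each tested Elovl probe as scaled in the text and under 6 other processing settings, with separate axes for Elovl3, for Elovl2 and for the other members; the grey bar is the range without single arrays. Elovl3 stays between 8.95 and 13.05 and Elovl5 between -2.09 and -1.27 under these settings, while Elovl6 and Elovl7 lie on both sides of 0.

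The enzymes that complete the elongation cycle were measured for 5 of 7 list members, of which 2 fell and 0 rose, where 10.5% of all tested genes fell and 6.65% rose. The median difference of the 5 was -0.54, beside -0.24 over all tested genes. Tecr, the enoyl reductase of the last step, fell by 0.84 (SE 0.18, limma adjusted p = 0.0223), with levels of 1.34 to 1.81 in P150KD and 2.25 to 2.55 in siControl. Hacd2, a dehydratase of the cycle, fell by 0.87 (SE 0.22, limma adjusted p = 0.0374), but leaving out any one of the 8 arrays ended the call, with adjusted p between 0.0529 and 0.102, and neither of its other probes passed. For Tecr, leaving out P150KD replicate 1, siControl replicate 1 or siControl replicate 2 ended the call, with adjusted p between 0.0511 and 0.0815. On the housekeeping scale neither passed, with differences of -0.15 for Tecr (adjusted p = 0.661) and -0.18 for Hacd2 (adjusted p = 0.645). Quantile normalization (adjusted p = 0.110) and scaling to the median (adjusted p = 0.0858) ended the Hacd2 call too. Hsd17b12, the ketoreductase, differed by -0.54 (adjusted p = 0.248), Hacd1 by -0.20 (adjusted p = 0.716) and Hacd3, also dehydratases, by 0.47 (adjusted p = 0.248). Hacd3 passed on the housekeeping scale, at 1.16 (adjusted p = 0.0138). Hacd4 and Tecrl, a relative of Tecr, were well above background on no array.

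The desaturases, which introduce double bonds into elongase substrates and products, fell for 2 of 8 tested members with 0 rising, beside 10.5% of all tested genes falling and 6.65% rising. Their median difference was -0.17, beside -0.24 over all tested genes. Scd1, a stearoyl-CoA desaturase that makes oleate and palmitoleate, was at 2.29, 2.87, 2.31, 2.09 and 2.47 in P150KD morulae, against 4.97, 5.46 and 5.76 in siControl morulae. It fell by 2.99 (SE 0.25, limma adjusted p = 0.00161), 7.97-fold, and the call held without each single array. Scd2, a second stearoyl-CoA desaturase, averaged 5.32 ± 0.22 in P150KD and 6.42 ± 0.42 in siControl (SD, n = 5 and 3), a fall of 2.13-fold (limma adjusted p = 0.0257). Leaving out P150KD replicate 3, 4 or 5, or siControl replicate 2 or 3, ended the Scd2 call, with adjusted p between 0.0514 and 0.0891, as did the housekeeping scale, at -0.40 (adjusted p = 0.239). Quantile normalization (adjusted p = 0.0572) and scaling to the median (adjusted p = 0.0596) ended the Scd2 call too. Of the polyunsaturated-chain desaturases that feed Elovl2 and Elovl5, Fads1 differed by 0.57 (adjusted p = 0.219), and on the housekeeping scale it was called higher, at 1.26 (adjusted p = 0.0157). Fads2 was above background on 2 P150KD arrays and 0 siControl arrays and was not tested. Scd3 differed by 0.81 (adjusted p = 0.349) by its brightest probe, Fads3 by 0.04 (adjusted p = 0.962) and Fads6 by -1.86 (adjusted p = 0.455). Other tested Scd3 probes differed by 0.13 (adjusted p = 0.906) and by -1.05 (adjusted p = 0.112), the latter with no overlap of the groups. The direction of Scd3 thus depended on the probe. The ceramide desaturases Degs1 and Degs2 differed by -0.39 (adjusted p = 0.237) and 2.52 (adjusted p = 0.272), and Scd4 was above background on no array.

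Across all 8 lists of lipid genes around the elongases, 96 of 113 members were tested, of which 6 rose, 18 fell and 72 did not pass. That is 25.0% called, beside 17.1% of all tested genes, and the median difference was -0.44, beside -0.24. On the housekeeping scale the lists had 16 rises and 7 falls, and Acly (-0.21), Ormdl1 (-0.41), Sptssa (-0.14), Scp2 (-0.49) and Dbi (-0.79) no longer passed. With slide column blocked there were 0 rises and 5 falls. Of the 22 called list genes chosen by the naming rule, 19 did not pass with that block, while Scd1 and Acsl6 were among those that did. In de novo fatty acid synthesis 2 of 12 tested genes fell and 0 rose, 16.7% called, where 10.5% of all tested genes fell and 6.65% rose. Acly, the ATP citrate lyase that supplies cytosolic acetyl-CoA, fell by 0.90 (limma adjusted p = 0.0158). Cbr4, a reductase of mitochondrial fatty acid synthesis, fell by 1.48 (limma adjusted p = 0.0128) by its brighter probe. The other Cbr4 probe differed by -1.03 (adjusted p = 0.0738), with overlap of the groups. In peroxisomal fatty acid oxidation 4 of 13 fell and 0 rose, 30.8% called, beside the same shares of all tested genes. Among them Scp2, a sterol carrier protein and thiolase, fell by 1.18 (limma adjusted p = 0.00541), and Decr2, a dienoyl-CoA reductase, by 1.36 (limma adjusted p = 0.0113). In sphingolipid synthesis 2 of 15 fell and 0 rose, 13.3% called, which is near the 10.5% of all tested genes that fell. Ormdl1, a regulator of serine palmitoyltransferase, fell by 1.10 (limma adjusted p = 0.0157) and Sptssa, a small subunit of that enzyme, by 0.83 (limma adjusted p = 0.0455). The Sptssa call ended without any one of the 8 arrays (adjusted p of 0.0595 to 0.147), that of Acly without siControl replicate 1 or 2 (adjusted p of 0.0570 to 0.0648), and that of Cbr4 without siControl replicate 1 (adjusted p = 0.0538). Scaling to the median ended the calls of Sptssa (adjusted p = 0.105) and Acly (adjusted p = 0.0566), and quantile normalization that of Sptssa (adjusted p = 0.0972).

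Genes that activate or carry fatty acids went both ways, with 1 of 13 tested rising and 2 falling, 23.1% called beside 17.1% of all tested genes. Acsl4, an acyl-CoA synthetase for arachidonate, averaged 4.17 ± 0.53 in P150KD and 2.23 ± 0.24 in siControl (SD, n = 5 and 3), a rise of 1.94 (limma adjusted p = 0.0111). Acsl6, another acyl-CoA synthetase, fell by 2.18 (limma adjusted p = 0.00207), and Dbi, the acyl-CoA binding protein, fell by 1.48 (limma adjusted p = 0.0214). The Dbi call ended without siControl replicate 1 or 3, with adjusted p of 0.0690 to 0.0827.

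Of 18 tested regulators of lipid synthesis genes 3 rose and 0 fell, where 6.65% of all tested genes rose and 10.5% fell. In either direction 16.7% were called, which is near the 17.1% of all tested genes, and their median difference was -0.22. Thrsp, a lipogenic nuclear protein, rose by 2.25 (limma adjusted p = 0.00445). Nr1h3, which encodes the oxysterol receptor LXR alpha, rose by 2.37 (limma adjusted p = 0.0237), with the same direction and call from its other probe, but without P150KD replicate 1, siControl replicate 1 or siControl replicate 3 the adjusted p was 0.0525 to 0.0851. Mlxipl, the glucose-responsive factor ChREBP, rose by 1.64 (limma adjusted p = 0.0296) by its brighter probe, while its other probe differed by -0.60 (adjusted p = 0.128); its call ended without P150KD replicate 1 or 5 or any siControl array, at an adjusted p of 0.0502 to 0.0956.

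Wax and neutral lipid synthesis had 2 rising and 4 falling genes among 12 tested, where 17.1% of all tested genes were called, with a median difference of -0.76. Mogat1, a monoacylglycerol acyltransferase, was above background on no siControl array. By the same kind of bound as for Elovl3, it was at least 5.33-fold higher in P150KD. It passed the filter through P150KD arrays alone, so its call rests on siControl values that are not measured levels. Dgat2, which makes triacylglycerol, fell by 2.18 (limma adjusted p = 0.0104), and Plin2, a lipid droplet coat protein, by 1.69 (limma adjusted p = 0.00975).

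**Figure D3:**
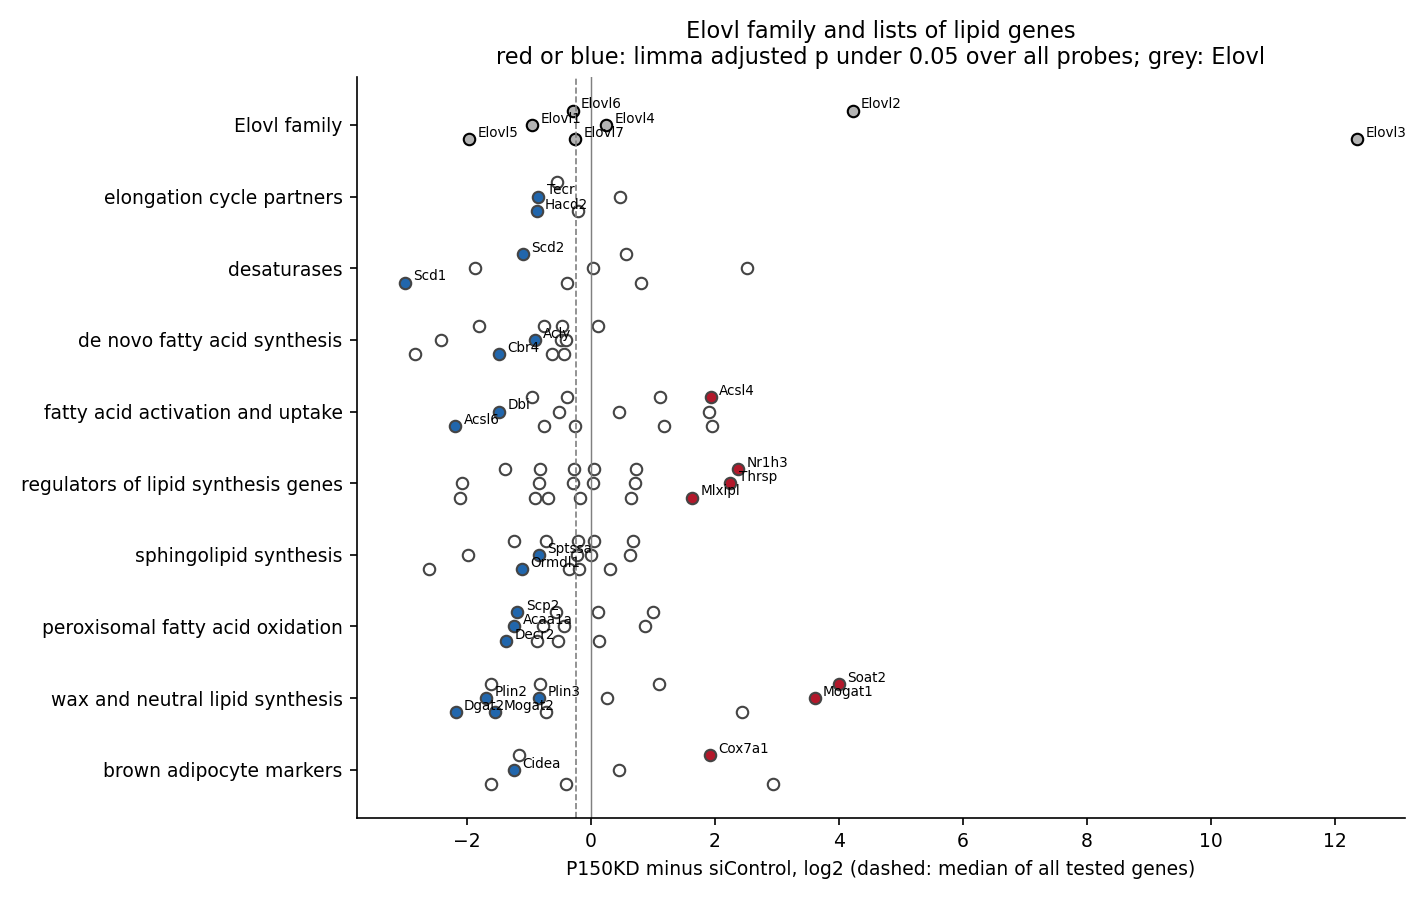
Difference of P150KD minus siControl (log2) for the tested genes of the Elovl family and of the lipid gene lists, except 1 gene not reported here, with red for genes that rose and blue for genes that fell by limma at an adjusted p of 0.05, grey for the Elovl genes and a dashed line at the median of all tested genes. Scd1 at -2.99 is the lowest desaturase and Elovl3 at 12.36 lies to the right of every list gene.

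Since Elovl3 is known from brown fat, 13 brown adipocyte markers were followed beside it. Of the 7 tested, 1 rose and 1 fell, 28.6% called beside 17.1% of all tested genes: Cox7a1, a subunit of cytochrome c oxidase, by 1.93 (limma adjusted p = 0.00911), and Cidea, a lipid droplet protein, which fell by 1.24 (limma adjusted p = 0.0409). Leaving out any array other than P150KD replicate 3 ended the Cidea call, with adjusted p between 0.0515 and 0.125, as did the housekeeping scale, at -0.55 (adjusted p = 0.218). Quantile normalization (adjusted p = 0.0810), scaling to the median (adjusted p = 0.0796) and no filter on dim probes (adjusted p = 0.0692) ended the Cidea call too. Fabp4 differed by 2.94 (limma adjusted p = 0.204), Adrb3 by 0.45 (adjusted p = 0.220) and Zic1 by -0.40 (adjusted p = 0.413). Otop1 differed by -1.16 (adjusted p = 0.0859) and Plin5 by -1.60 (adjusted p = 0.501). The summed scaled signal of the list was 14.2 to 21.3 on P150KD arrays and 20.3 to 25.2 on siControl arrays. Ucp1 and Prdm16 were each above background on 2 P150KD arrays and 0 siControl arrays, Adipoq on 0 and 2, and Cox8b, Dio2 and Ebf2 on no array. Of 12 leukocyte markers 7 were tested, of which Cd74, Coro1a and Srgn rose and 0 fell, and the list summed to 8.63 to 17.1 on P150KD arrays and 5.77 to 7.66 on siControl arrays. Itgb2 differed by 1.88 (limma adjusted p = 0.0953), and Fcer1g, Lcp1 and Cd52 did not pass. The other 5, Ptprc, Cd53, Laptm5, Tyrobp and Spi1, were above background on no array. The part of these markers in the Elovl3 values was not tested.

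Elovl3 lies on chromosome 19, and in the RefSeq order of genes with a named probe its nearest neighbours differed far less. On one side Nolc1, a nucleolar phosphoprotein, differed by 0.49 (limma adjusted p = 0.104) and Pprc1, a coactivator related to PGC-1, by 0.54 (adjusted p = 0.196). The Nolc1 groups did not overlap, and Nolc1 passed with robust eBayes with a trend (adjusted p = 0.0253). On the housekeeping scale Nolc1 passed at 1.19 (adjusted p = 0.0122) and Pprc1 at 1.23 (adjusted p = 0.0299). On the other side Pitx3, a homeobox gene, differed by 0.48 (adjusted p = 0.384), and Gbf1, a guanine nucleotide exchange factor of the Golgi, was not tested. Of the 10 genes within 5 places on either side, 9 were tested, 1 rose and 0 fell, where 6.65% of all tested genes rose and 10.5% fell. The median difference of the 9 was 0.48, beside -0.24 over all tested genes. The gene that rose was Hps6, a gene of lysosome-related organelle biogenesis, at 2.13 ± 0.21 in P150KD and 1.09 ± 0.47 in siControl (SD, n = 5 and 3), a difference of 1.04 (SE 0.25, limma adjusted p = 0.0340). Leaving out siControl replicate 2 or 3, or P150KD replicate 1, 3, 4 or 5, ended that call, with adjusted p between 0.0627 and 0.0982. Scaling to the median (adjusted p = 0.0589) and testing without the filter on dim probes (adjusted p = 0.0567) ended it too. Ldb1, 3 places from Elovl3, differed by 1.33 (SE 0.47, limma adjusted p = 0.0998), with no overlap of the groups.

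Around all 7 members, 59 of 70 neighbours were tested, of which 7 rose and 7 fell, where 6.65% of all tested genes rose and 10.5% fell. Their median difference was -0.09, beside -0.24 over all tested genes. Around Elovl5 on chromosome 9, 1 of 7 tested neighbours rose, Gcm1, and 2 fell, Fbxo9 and Gsta4. Around Elovl2 on chromosome 13, 1 of 8 rose, Gcnt2, and 0 fell.

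**Figure D4:**
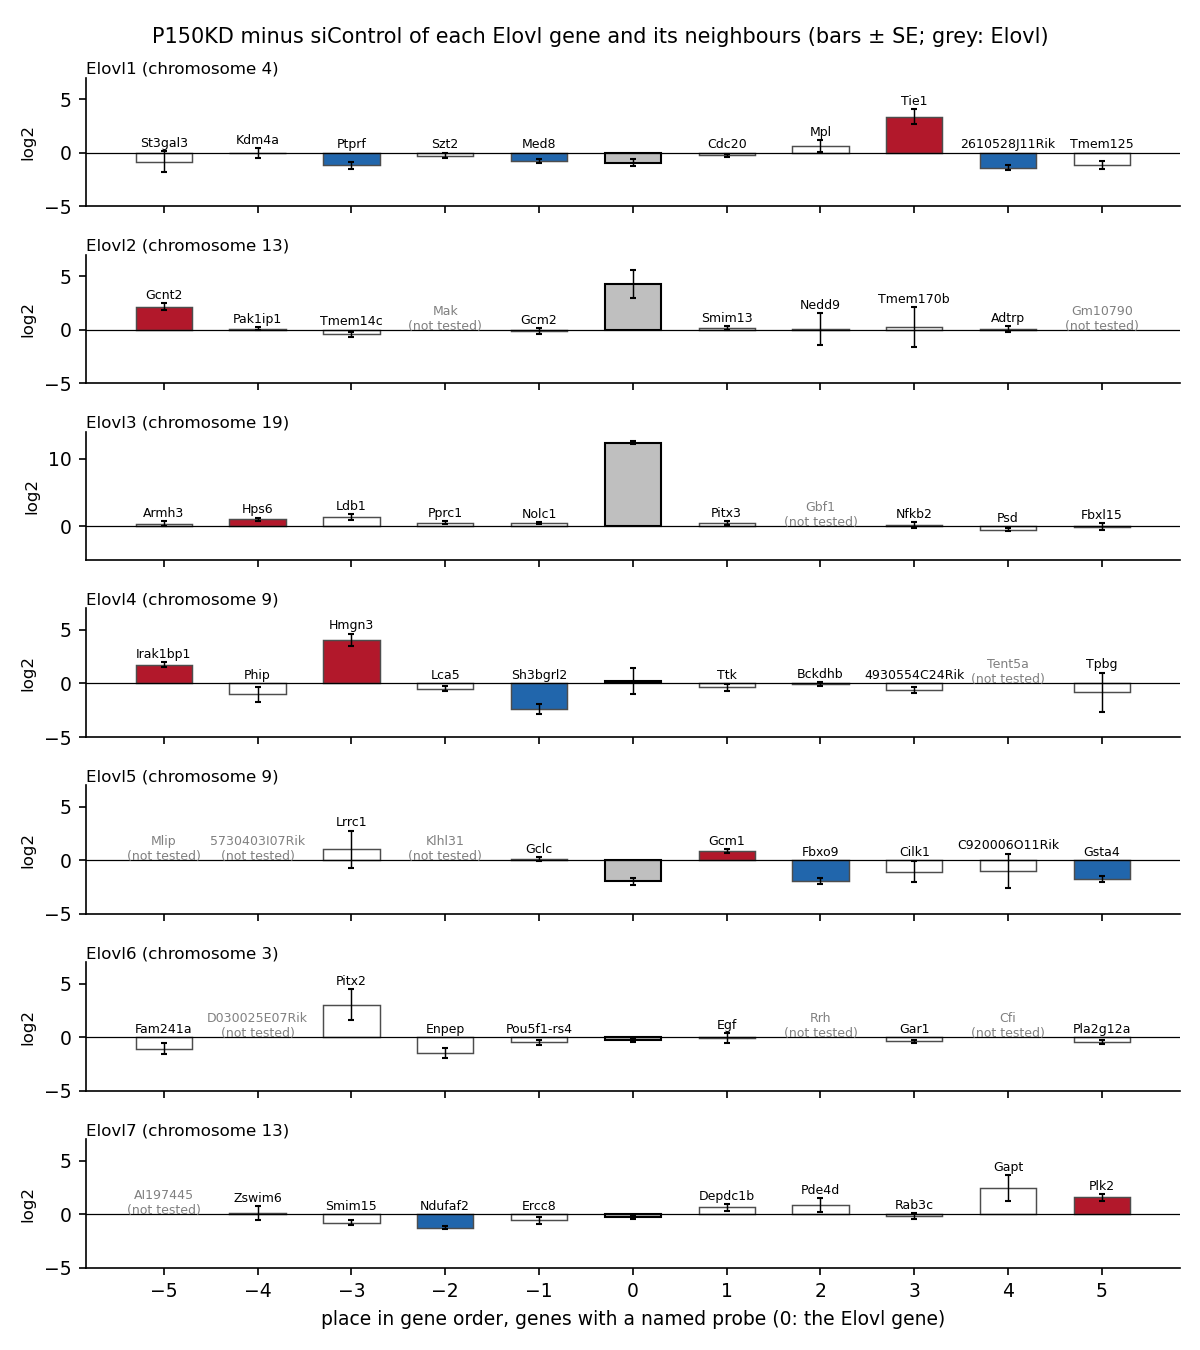
Difference of P150KD minus siControl (log2) for the 5 genes with a named probe on each side of every Elovl gene, by place in the RefSeq gene order, with the Elovl gene at place 0 bars with their SE, red or blue for neighbours called higher or lower by limma at an adjusted p of 0.05, white for those not called and grey for Elovl genes. Elovl3 at 12.36 stands above its 9 tested neighbours, whose median is 0.48.

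The genes whose levels followed Elovl3 most closely over the 8 arrays were ranked by Pearson correlation among 14594 named genes, of which 16 had an r above 0.99. The 5 highest were Pmaip1 (r = 0.9988), which encodes the apoptosis regulator Noxa, Gpx6 (r = 0.9983), a glutathione peroxidase, Csrnp3 (r = 0.9967), Tfrc (r = 0.9961), the transferrin receptor, and Xdh (r = 0.9954), xanthine dehydrogenase. Since Elovl3 falls into a pair of tight clusters by group, such an r mostly records the gap between groups. Pmaip1 averaged 6.82 ± 0.06 in P150KD and 5.02 ± 0.02 in siControl, and Tfrc 7.03 ± 0.10 in P150KD and 5.62 ± 0.06 in siControl (SD, n = 5 and 3). Gpx6, Csrnp3 and Xdh were, like Elovl3, above background on all 5 P150KD arrays and on no siControl array. By the same kind of bound as for Elovl3, they were at least 46.7-fold, 117-fold and 28.2-fold higher in P150KD.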

How the data were processed

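RNA of mouse morulae was measured on 8 one-colour arrays, 5 P150KD and 3 siControl, grouped by the labels. Per the labels' protocols, RNA of 10 embryos went through 2 rounds of linear amplification before Cy3 labelling, so levels are relative. Per the file headers and the submitters' processing notes, the scans were read by the authors with Agilent Feature Extraction 10.5.1, on a design annotated to mouse build mm9. Per the file headers, background was subtracted from the processed signal, an intensity that is not normalized between arrays, raw intensity is held by the columns of spot and background medians, and the columns of other kinds are 0 or 1 flags. The deposited series table holds log2 values: 99.9% lay within 0.05 of log2 processed signals divided by the 75th percentile and set to a median of 0 per probe, with column medians of -0.21 to 0.09.

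Spots of 1 probe were averaged, and from log2 signals each array's own 75th percentile (log2) was taken off. Probes above background on at least 3 of 8 arrays, 30348 in all, were compared with limma 3.58.1 in R 4.3.3 by a two-sided moderated test without covariates, fitted with lmFit and eBayes; p-values were adjusted by Benjamini-Hochberg over these probes, at a threshold of 0.05. A gene was represented by its tested probe with the highest mean signal. Probe names came from a join of RefSeq accessions with the RefSeq gene table, by which 27235 probes had 1 symbol, 28446 had none here, and 1450 RefSeq accessions had no match. That table is of a later build than mm9, so only names and gene order were taken from it. The procedure was tested on simulated data. The number of arrays limits the precision.

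The members, the lists and the tests were chosen with earlier results of these data known. Genes named are Chaf1a, all Elovl probes, all elongation cycle partners and desaturases, up to 3 called members with the smallest p of each other list, the 2 nearest genes on each side of Elovl3 with any called gene among the 5, and the 5 genes most correlated with Elovl3. Other marker genes, Ldb1, and the called neighbours of Elovl2 and Elovl5 were named after their values were seen. A gene that the rule names is not reported here. Alternatives were normexp (offset 50, on the median spot signal, the column held), quantile normalization, scaling to the median or to 12 housekeeping genes, the series table, no filter or all arrays above background, a block for the replicate number or the slide column, robust eBayes with a trend, array weights (statmod 1.5.0), a gene's probes averaged, and each array left out. All arrays lay on 1 slide with 1 scan date, so a slide block was not run. Tables were made with Python 3.11.15 and pandas 2.3.3.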

Additional observations from a re-analysis of the deposited data

Results flagged for a closer look

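A pair of Elovl values stood apart from the other arrays of their group by Dixon's test at its critical value of 0.71 for 5 arrays. Elovl2 on P150KD replicate 1 was at -7.29, while the other 4 P150KD arrays lay between -2.43 and -1.17, and the gap was 0.80 of the group's range. Elovl5 on P150KD replicate 2 was at 3.56, while the other 4 lay between 4.40 and 4.72, and the gap was 0.72 of the range. Without that array the difference of Elovl5 was -1.76, against -1.96 with it. The P150KD values of 50 probes were checked, and chance marks about 1 in 20 groups in this way. The cause of either value was not tested.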

How the results depend on the processing

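Elovl3 and Elovl5 kept their direction under every alternative run. Elovl3 differed by 8.95 with normexp, 13.05 on the housekeeping scale and 12.88 with slide column blocked, and by 12.23 to 12.41 without single arrays; the filter for all arrays above background left out Elovl2, Elovl3 and Elovl4. Elovl2 differed by 1.79 with normexp and by -0.05 with slide column blocked, where 1 P150KD array stands against the controls. Deviations of same-numbered samples from their group means had correlations of -0.07 to -0.01. Such deviations sum to 0 within a group, so these values cannot settle whether equal numbers mark a shared collection. The replicate number as a block leaves fewer residual degrees of freedom, and P150KD replicates 4 and 5 add nothing to its contrast. With it limma called 0 probes higher and 0 lower (2616 and 3755 at an unadjusted p under 0.05). Chaf1a then differed by -2.73 (adjusted p = 0.163), and the lipid lists and the neighbours had 0 rises and 0 falls. Blocking the slide column, 442 probes rose and 271 fell, Chaf1a differed by -3.72 (adjusted p = 0.0509), the lipid lists had 0 and 5, and the neighbours 1 and 0. On the housekeeping scale 5041 probes rose and 407 fell, the lipid lists had 16 and 7, and the neighbours 13 and 3; Hsd17b12, Hacd1 and Degs1 turned to 0.16, 0.49 and 0.30. Falls were 1487 after quantile normalization and 1512 when scaled to the median. Without single arrays, 1016 to 1770 probes rose and 690 to 1979 fell, Chaf1a differed by -3.16 to -2.66, the lipid lists had 3 to 6 rises and 9 to 17 falls, and the neighbours 3 to 6 rises and 4 to 7 falls; each such fit has 1 array fewer. Hacd1 lay at -0.57 to 0.045 without single arrays, the highest without siControl replicate 3. Scd3 turned to -0.037 as the mean of all probes. Fads3, near 0, was at -0.019 scaled to the median, -0.10 with the replicate block, -0.37 with the column block, -0.26 with array weights, and -0.30 to 0.50 without single arrays, with -0.07 and -0.30 without siControl replicates 2 and 3 and -0.09 and -0.19 without P150KD replicates 3 and 5. Of 31 named list genes 22 were called, and 12 of these kept the call without each array. No slide block was run, with 1 slide. For causes not given by an alternative's construction, the cause was not tested.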
